A study of Mus musculus with 6 samples.

Results

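The genes described here encode chromatin remodelers and histone modifying enzymes, taken as every gene whose symbol begins with *Kmt*, *Kdm*, *Chd*, *Smarc*, *Arid*, *Setd*, *Hdac* or *Kat* in the form used by those families, together with *Crebbp*, *Ep300*, *Ep400* and *Srcap*. This gave 88 genes of the 20631 genes listed, and all 88 passed the filter on low counts. Their expression was measured by total RNA-seq in neuromesodermal progenitors (NMPs), the bipotent cells that give rise to spinal cord and somites. Mouse embryonic stem cells (ESCs) were grown for 3 days in retinoid-free medium with bFGF, the WNT agonist CHIR99021 being added on the last day, and both factors were then withdrawn. For the next 2 h the cells received DMSO as the control, 25 nM retinoic acid (RA) or 1 µM RA, with 2 samples per condition. The strain is given as 129 R1 with the samples and as C57BL/6 in the methods of the study. The 2 samples of a condition were separate culture dishes, described as technical replicates, so the p-values below measure the spread between dishes of 1 experiment.

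Chromatin remodelers use ATP to slide, eject or exchange nucleosomes, whereas histone modifying enzymes add or remove acetyl and methyl groups on histone tails. Methylation of histone H3 lysine 4 by the KMT2 and SETD1 enzymes marks promoters and enhancers, and acetylation by CBP and p300 accompanies active enhancers. RA acts through nuclear receptors that recruit acetyltransferases and remodelers when ligand is bound, and histone deacetylases through corepressors when it is not, so the members include much of the machinery that RA receptors work with. The symbols were matched by name alone, so some members are better known for other substrates, such as *Setd3*, an actin methyltransferase, and *Hdac6*, a tubulin deacetylase.

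The 6 libraries held between 31753556 and 42029348 estimated counts, and the members took between 0.746% and 0.800% of them. In DMSO the share was 0.800% and 0.793%, with 25 nM RA it was 0.775% and 0.789%, and the 1 µM samples had 0.751% and 0.746%. The NMP marker *T* stood between 367 and 380 RPKM (reads per kilobase of transcript, relative to sequencing depth) in all 6 samples. Other NMP markers did move with RA. *Sox2* had means of 5.20 RPKM in DMSO, 15.4 RPKM at 25 nM and 16.3 RPKM at 1 µM. *Nkx1-2* had 39.1, 79.5 and 77.7 RPKM in the same order, and *Fgf8* had 58.3, 50.7 and 49.0 RPKM. The RA target *Cyp26a1* rose from 52.3 to 52.6 RPKM in DMSO to 178 at 25 nM and 272 to 283 at 1 µM. Summed over 8 fibroblast markers, which would reveal feeder cells, the level was 6.30 and 6.50 RPKM in DMSO, 6.06 and 6.30 RPKM at 25 nM and 5.67 and 5.52 RPKM at 1 µM. Of these markers *Col1a2* (2.65 RPKM in DMSO) and *Thy1* (1.74 RPKM) were the highest and *Lum* (0.0208 RPKM) the lowest. At 1 µM *Col1a2* (log2 fold change -0.27), *Col1a1* (-0.48) and *Postn* (-0.58) were lower. *Thy1* (0.06) and *Dcn* (0.44) had positive values, *Col3a1* (-0.34) and *Twist2* (-0.25) negative ones, and none of these passed the test. *Lum* was too low to be tested. Summed over 5 endoderm markers the level was 46.2 to 47.9 RPKM in DMSO and 34.0 to 35.6 RPKM in the 4 RA samples. The part of the shift in either sum in the results below was not tested. In such bulk RNA, fewer cells of a type and less RNA per cell cannot be told apart.

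Promoter windows are shown for 4 members. *Srcap*, *Crebbp* and *Kmt2d* were taken from the members with the smallest adjusted p among those lower at 1 µM RA. *Kat7* was higher and was picked for a motif in its window, as given below. Each window runs 5′ to 3′ on the strand of the gene, from 250 bases before the RefSeq start to 50 bases after it (RefSeq, GRCm38.p6), and capitals mark GGGCGG (the GC box), CCGGAAG (an ETS motif) or AGGTCA (the core motif of RA receptors) on either strand. *Srcap* lies at chr7:127511733-127512032 on the plus strand, and the other three windows, chr16:4213355-4213654 for *Crebbp*, chr15:98871156-98871455 for *Kmt2d* and chr11:95310197-95310496 for *Kat7*, lie on the minus strand.
Srcap: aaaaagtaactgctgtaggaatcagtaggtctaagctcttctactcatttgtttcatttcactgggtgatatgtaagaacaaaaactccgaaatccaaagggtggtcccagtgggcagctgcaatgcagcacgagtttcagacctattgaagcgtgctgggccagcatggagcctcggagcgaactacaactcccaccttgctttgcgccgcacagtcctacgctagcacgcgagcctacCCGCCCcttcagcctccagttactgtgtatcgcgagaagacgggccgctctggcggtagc
Crebbp: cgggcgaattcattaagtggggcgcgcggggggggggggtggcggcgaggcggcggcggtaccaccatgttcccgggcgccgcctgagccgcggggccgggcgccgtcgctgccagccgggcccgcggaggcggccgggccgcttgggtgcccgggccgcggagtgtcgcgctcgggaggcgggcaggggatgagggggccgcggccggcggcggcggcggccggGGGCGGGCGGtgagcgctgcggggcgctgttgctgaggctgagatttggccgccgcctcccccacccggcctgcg
Kmt2d: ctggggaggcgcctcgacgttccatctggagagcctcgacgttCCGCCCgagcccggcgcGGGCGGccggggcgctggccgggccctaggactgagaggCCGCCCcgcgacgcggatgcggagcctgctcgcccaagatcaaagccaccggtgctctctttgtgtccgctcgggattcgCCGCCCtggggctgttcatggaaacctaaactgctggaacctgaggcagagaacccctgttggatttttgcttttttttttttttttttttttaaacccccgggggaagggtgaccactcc
Kat7: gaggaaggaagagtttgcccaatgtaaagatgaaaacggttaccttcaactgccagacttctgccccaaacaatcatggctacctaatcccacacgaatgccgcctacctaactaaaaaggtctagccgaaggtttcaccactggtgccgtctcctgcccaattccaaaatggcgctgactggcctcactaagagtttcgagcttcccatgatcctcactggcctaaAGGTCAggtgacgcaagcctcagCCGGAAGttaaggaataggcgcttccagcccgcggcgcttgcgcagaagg
*Srcap* held 1 GC box, *Crebbp* 2 overlapping GC boxes and *Kmt2d* 4, and none of these 3 windows held AGGTCA. *Kat7* held 1 AGGTCA and 1 ETS motif and no GC box. It was chosen as a member higher at 1 µM RA with AGGTCA in its window. Its contrast with the other 3 windows was thus set by the choice and is not a result.

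Windows were found for 67 of the 88 members, and for 27025 genes in all. In this paragraph "all genes" means those 27025, which were not filtered by expression, unlike the 15143 genes tested elsewhere. All members passed the filter on low counts, so the 2 sets differ in expression, and the part of this in the differences below was not tested. A gene with several windows counted for a motif when any window matched, and its highest GC content was used. The 67 members had 88 windows and the 27025 genes 32851, and no adjustment was made for this. A GC box stood in 74.6% of the members and 38.2% of all genes. The median GC content was 65.7% over the members and 53.3% over all genes. AGGTCA stood in 7 members, or 10.4%, against 18.1% of all genes. Those 7 were *Hdac7* and *Kdm4c*, lower at 1 µM RA, *Kat7*, higher, and *Hdac9*, *Kat8*, *Kdm1a* and *Kdm6a*, which passed the test in neither direction. Direct repeats of AGGTCA with 2 or 5 bases between them, the spacings known as DR2 and DR5, matched 0 member windows and 2 and 3 of all genes. The ETS motif matched 19.4% of members and 9.93% of all genes, CCAAT 43.3% and 41.1%, and the E-box CACGTG 5.97% and 8.09%. Among the 26 members with a window that were lower at 1 µM RA, 20 held a GC box, or 76.9% against 74.6% of all members with a window. CCAAT stood in 5 (19.2% against 43.3%) and the ETS motif in 4 (15.4% against 19.4%). AGGTCA stood in 2 (7.69% against 10.4%), as did CACGTG (7.69% against 5.97%). None of these differences was tested. These are matches of letters in a short window and say nothing of binding.

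In DMSO the members spanned a wide range of levels, with a median of 8.15 RPKM against 5.03 RPKM over all 15143 genes tested. The most abundant was *Chd4*, the ATPase of the NuRD complex, at 82.3 ± 1.50 RPKM (SD, n = 2). Other abundant members were the class I deacetylases *Hdac2* at 76.5 ± 1.09 RPKM and *Hdac1* at a mean of 72.0 RPKM, the ISWI ATPase *Smarca5* at 68.8 ± 2.87 RPKM and the H3K4 demethylase *Kdm1a* (LSD1) at 60.3 ± 1.05 RPKM. *Arid3b*, a DNA-binding ARID protein, led its family at 34.2 ± 1.12 RPKM. *Setd8*, the H4K20 monomethyltransferase, stood at 32.5 ± 0.918 RPKM and *Kat5* (Tip60) at 26.3 ± 0.0423 RPKM. Per length, the KMT2 enzymes were scarce: *Kmt2b* was the highest at 3.80 ± 0.0444 RPKM and *Kmt2d* the lowest at 1.61 ± 0.273 RPKM. At the bottom were *Kdm4d* at 0.0915 ± 0.0666 RPKM, which rested on 5 to 19 counts per sample, *Arid5a* at 0.290 ± 0.0361 RPKM, *Hdac9* at 0.310 ± 0.0300 RPKM and *Chd5* at 0.422 ± 0.0423 RPKM. *Kat2b* (2.46 ± 0.144 RPKM), *Smarcd3* (1.78 ± 0.0765 RPKM) and *Setd1b* (0.613 ± 0.0543 RPKM) were the lowest of their families.

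**Figure D1:**
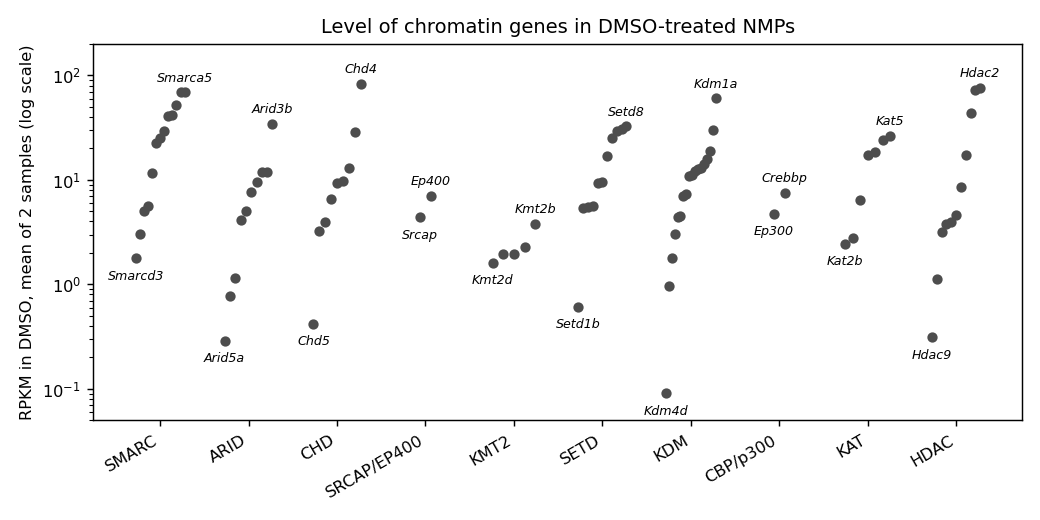
Mean RPKM in the 2 DMSO samples (log scale) of each of the 88 members, grouped by family, with the highest and lowest member of each family named. The levels run from 0.0915 RPKM for Kdm4d to 82.3 RPKM for Chd4, and the 5 KMT2 genes lie between 1.61 and 3.80 RPKM.

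The first comparison asked how the members responded to 1 µM RA, a pharmacological dose, within 2 h. Many fell by a modest amount: 30 of the 88 were lower, 5 were higher and 53 passed the test in neither direction (edgeR likelihood ratio test, Benjamini-Hochberg adjusted p under 0.1 over all genes tested). That was 34.1% lower and 5.68% higher, against 11.2% and 8.54% of all genes, so the share higher was below the background. The median log2 fold change was -0.079 over the members and 0.001 over all genes, and 59 of the 88 members had a negative value. Both 1 µM samples lay below both DMSO samples, after TMM scaling of the counts, for 45 members and above them for 15, where 27.1% and 27.2% of all genes did so. When transcript length and GC content were fitted as offsets, an alternative described below, the split was 18 lower and 9 higher. The number higher was 1 without DMSO replicate 1 or 1 µM replicate 1, and 3 without DMSO replicate 2.

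The coactivators CBP and p300, the acetyltransferases that many nuclear receptors recruit, were both lower. *Crebbp* (CBP; chr16:4084048-4213404, minus strand, mm10) measured 7.62 and 7.49 RPKM in DMSO, 6.47 and 6.62 RPKM at 25 nM and 5.12 and 5.22 RPKM at 1 µM. The 3 conditions did not overlap and the 1 µM samples were the lowest. The level fell by 31.9% at 1 µM RA, a log2 fold change of -0.55 (SE 0.0533, edgeR adjusted p = 2.89e-23), the smallest p among the members. For *Ep300* (p300), the samples read 4.57 and 4.91 RPKM in DMSO, 4.10 and 4.38 RPKM at 25 nM, and 3.44 and 3.58 RPKM at 1 µM. Again all samples were in the order of dose, and the log2 fold change at 1 µM was -0.44 (SE 0.0623, edgeR adjusted p = 8.01e-11).

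SRCAP and EP400, the ATPases of the complexes that place the histone variant H2A.Z, moved the same way. *Srcap* (chr7:127511983-127561219, plus strand) stood at 4.19 and 4.57 RPKM in DMSO, 3.96 and 3.92 RPKM at 25 nM, and 2.90 and 2.99 RPKM at 1 µM. The samples of the 3 conditions were separate. At 1 µM it was lower by 0.58 on the log2 scale (log2 fold change -0.58, SE 0.0596, edgeR adjusted p = 4.52e-20). Its locus overlaps *Snora30* on the same strand and *1700008J07Rik* on the other, and the sources do not say whether counting used strand. *Ep400* measured 6.81 and 7.12 RPKM in DMSO, 6.26 and 6.49 RPKM at 25 nM and 5.33 and 5.48 RPKM at 1 µM. Its log2 fold change at 1 µM was -0.37 (SE 0.0533, edgeR adjusted p = 1.55e-10), with no overlap between conditions.

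The H3K4 methyltransferases held the largest share of lower genes among the families with more than 2 members, with 4 of the 5 KMT2 genes lower and a median log2 fold change of -0.40. That was 80% lower, against 11.2% of all genes. *Kmt2d* (MLL4), which methylates enhancers, read 1.42 and 1.80 RPKM in DMSO, 1.36 and 1.44 RPKM at 25 nM, and 0.958 and 0.996 RPKM at 1 µM. Its DMSO samples differed from each other and overlapped the 25 nM samples, but both 1 µM samples lay below the other 4. It had the most negative fitted value of all members, a log2 fold change of -0.73 (SE 0.0907, edgeR adjusted p = 9.24e-14). *Kmt2a* (MLL1) went from 2.20 and 2.40 RPKM in DMSO to 2.13 and 2.16 RPKM at 25 nM and 1.67 and 1.75 RPKM at 1 µM (log2 fold change at 1 µM -0.43, SE 0.0618, edgeR adjusted p = 1.72e-10). *Kmt2b* (MLL2) went from 3.83 and 3.77 RPKM through 3.57 and 3.26 RPKM to 2.92 and 2.86 RPKM (log2 fold change -0.40, SE 0.0614, edgeR adjusted p = 2.00e-09). In both genes the 1 µM samples were the lowest and the 25 nM samples lay below DMSO. *Kmt2c* was lower (-0.36), and *Kmt2e*, which is not known to be an active methyltransferase, did not pass the test (-0.14, adjusted p = 0.18).

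The SETD1 enzymes, the other H3K4 methyltransferases of this kind, were lower too, as part of 4 lower and 0 higher among the 11 SETD genes. That was 36.4% and 0%, against 11.2% and 8.54% of all genes. *Setd1a* measured 5.85 and 5.40 RPKM in DMSO, 5.18 and 4.69 RPKM at 25 nM, and 4.12 and 3.87 RPKM at 1 µM. The conditions did not overlap, and the log2 fold change at 1 µM was -0.50 (SE 0.0671, edgeR adjusted p = 3.46e-12). *Setd1b* was unlike the rest: 0.574 and 0.651 RPKM in DMSO, 0.716 and 0.691 RPKM at 25 nM and 0.455 and 0.496 RPKM at 1 µM, so that the 25 nM samples were the highest and the 1 µM samples the lowest. Its log2 fold change was -0.37 at 1 µM (SE 0.114, edgeR adjusted p = 0.0116), from 175 to 296 counts per sample. That call was lost without DMSO replicate 2 (-0.27) or without 1 µM replicate 1 (-0.32). *Setd5* (-0.13) and *Setd7* (-0.19) made up the count, while *Setd2*, an H3K36 methyltransferase, and *Setdb1*, an H3K9 methyltransferase, had values of -0.08 and -0.01 and did not pass.

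**Figure D2:**
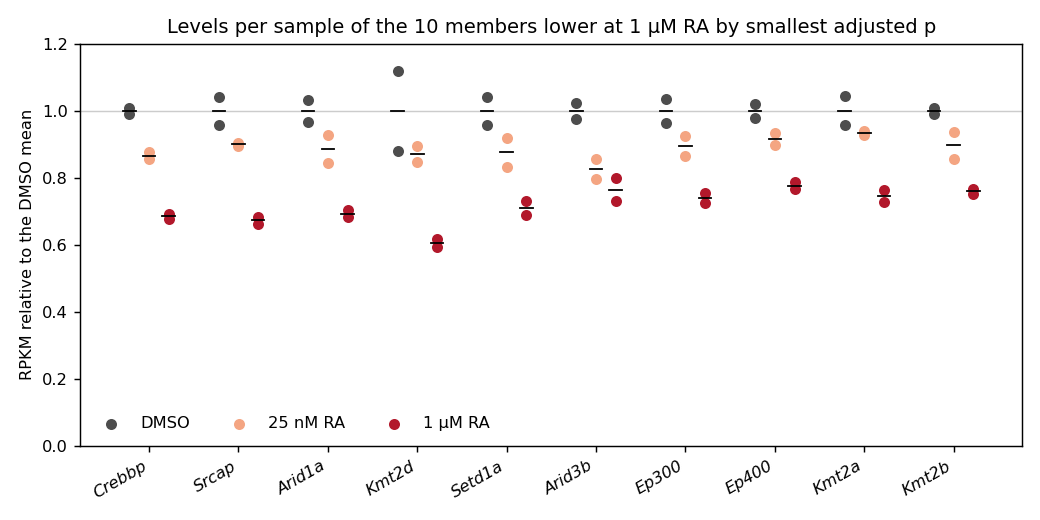
RPKM of each of the 6 samples divided by the mean of the 2 DMSO samples, for the 10 members lower at 1 µM RA with the smallest adjusted p; points are samples, short lines the mean of 2. For all 10 genes both 1 µM samples lie below both DMSO samples; the 25 nM samples lie between, except that for Kmt2d they overlap DMSO and for Arid3b they overlap 1 µM.

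Among the remodelers, the ARID family had 5 lower and 0 higher of 10, or 50% and 0% against 11.2% and 8.54% of all genes. *Arid1a*, the DNA-binding subunit of the canonical BAF (mammalian SWI/SNF) complex, read 7.44 and 7.94 RPKM in DMSO, 6.48 and 7.15 RPKM at 25 nM, and 5.26 and 5.40 RPKM at 1 µM. The conditions were again separate and in the order of dose (log2 fold change at 1 µM -0.53, SE 0.0618, edgeR adjusted p = 3.94e-16). Its paralog *Arid1b* (-0.29) and *Arid2* (-0.22), the matching subunit of the PBAF complex, were also lower. *Arid3b* stood at 35.0 and 33.4 RPKM in DMSO, 29.3 and 27.3 RPKM at 25 nM and 25.0 and 27.3 RPKM at 1 µM, so both doses lay below DMSO but overlapped each other (log2 fold change at 1 µM -0.40, SE 0.0549, edgeR adjusted p = 2.97e-11). *Arid5b*, a partner of a histone demethylase, fell at both doses, from 1.23 and 1.09 RPKM to 0.798 and 0.819 RPKM at 25 nM and 0.743 and 0.683 RPKM at 1 µM (log2 fold change at 1 µM -0.71, SE 0.123, edgeR adjusted p = 1.51e-07). *Arid5a* had a value of -0.21 and did not pass.

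Most, but not all, of the 13 *Smarc* genes encode core or ATPase subunits of SWI/SNF and ISWI. Of the 13, 3 were lower (23.1%, against 11.2% of all genes) and 1 was higher, with a median log2 fold change of -0.003. The lower ones were *Smarcd1* (-0.25), *Smarca4* (-0.19), the BRG1 ATPase, and *Smarcc1* (-0.13). *Smarca5* was higher, with 70.8 and 66.8 RPKM in DMSO, 71.5 and 73.8 RPKM at 25 nM and 82.6 and 75.3 RPKM at 1 µM (log2 fold change at 1 µM 0.19, SE 0.0568, edgeR adjusted p = 0.00802). Its 1 µM samples lay above the others, and the call was lost without DMSO replicate 2 (0.16) or without 1 µM replicate 1 (0.11).

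Of the 9 CHD remodelers, *Chd8* (-0.16) and *Chd6* (-0.14) were lower at 1 µM RA and *Chd9* was higher, with *Chd4* at -0.09 and *Chd5* at -0.26 passing in neither direction. That was 22.2% lower and 11.1% higher, against 11.2% and 8.54% of all genes, and the median of the family was 0.013. *Chd9* measured 3.16 and 3.34 RPKM in DMSO, 3.99 and 4.20 RPKM at 25 nM and 3.72 and 3.53 RPKM at 1 µM. Its 25 nM samples were the highest, and the log2 fold change at 1 µM was 0.15 (SE 0.0602, edgeR adjusted p = 0.0676), a call lost without DMSO replicate 1 (0.11) or 1 µM replicate 1 (0.10).

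Of the 18 KDM demethylases 4 were lower (22.2%, against 11.2% of all genes), *Kdm7a* (-0.28), *Kdm4c* (-0.15), *Kdm5b* (-0.14) and *Kdm5c* (-0.12), the last a close paralog of the Y-linked *Kdm5d*. *Kdm3a*, an H3K9 demethylase, was higher, at 10.8 and 11.2 RPKM in DMSO, 11.6 and 11.9 RPKM at 25 nM and 12.5 and 12.7 RPKM at 1 µM (log2 fold change at 1 µM 0.19, SE 0.0530, edgeR adjusted p = 0.00301; 0.16 and no longer called without DMSO replicate 1). Its samples rose in the order of dose without overlap. *Kdm1a* (0.01) and *Kdm4d* (-0.02) did not pass.

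Among the 11 HDAC genes 2 were lower, or 18.2% against 11.2% of all genes. The class IIa deacetylases *Hdac7* (1.14 and 1.12 RPKM in DMSO, 1.11 and 1.02 RPKM at 25 nM, 0.830 and 0.788 RPKM at 1 µM) and *Hdac5* made up the count. The log2 fold change of *Hdac7* was -0.51 (SE 0.121, edgeR adjusted p = 0.000362) and that of *Hdac5* -0.19. *Hdac2* was higher, with 77.3 and 75.7 RPKM in DMSO, 77.6 and 81.2 RPKM at 25 nM and 83.6 and 84.2 RPKM at 1 µM (log2 fold change 0.13, SE 0.0496, edgeR adjusted p = 0.0686). Its call was lost when any DMSO or 1 µM sample was left out, at log2 fold changes of 0.12 to 0.13. *Hdac1* (0.04), *Hdac3* (-0.01) and *Hdac9* (-0.30) did not pass.

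Of the 7 KAT acetyltransferases, *Kat6a* (-0.23) and *Kat2a* (-0.16), the GCN5 enzyme, were lower and *Kat7* (HBO1) was higher. That was 28.6% lower and 14.3% higher, against 11.2% and 8.54% of all genes, and the median of the family was 0.085. *Kat7* had 17.4 and 17.5 RPKM in DMSO, 19.4 and 18.7 RPKM at 25 nM and 19.1 and 19.1 RPKM at 1 µM, both doses lying above DMSO and overlapping each other (log2 fold change at 1 µM 0.13, SE 0.0486, edgeR adjusted p = 0.0549). That call was lost without DMSO replicate 1 (0.12), DMSO replicate 2 (0.14) or 1 µM replicate 1 (0.12). *Kat5* (0.07) and *Kat2b* (0.11) did not pass. Members with values here that the naming rule did not pick were chosen after their values were seen.

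**Figure D3:**
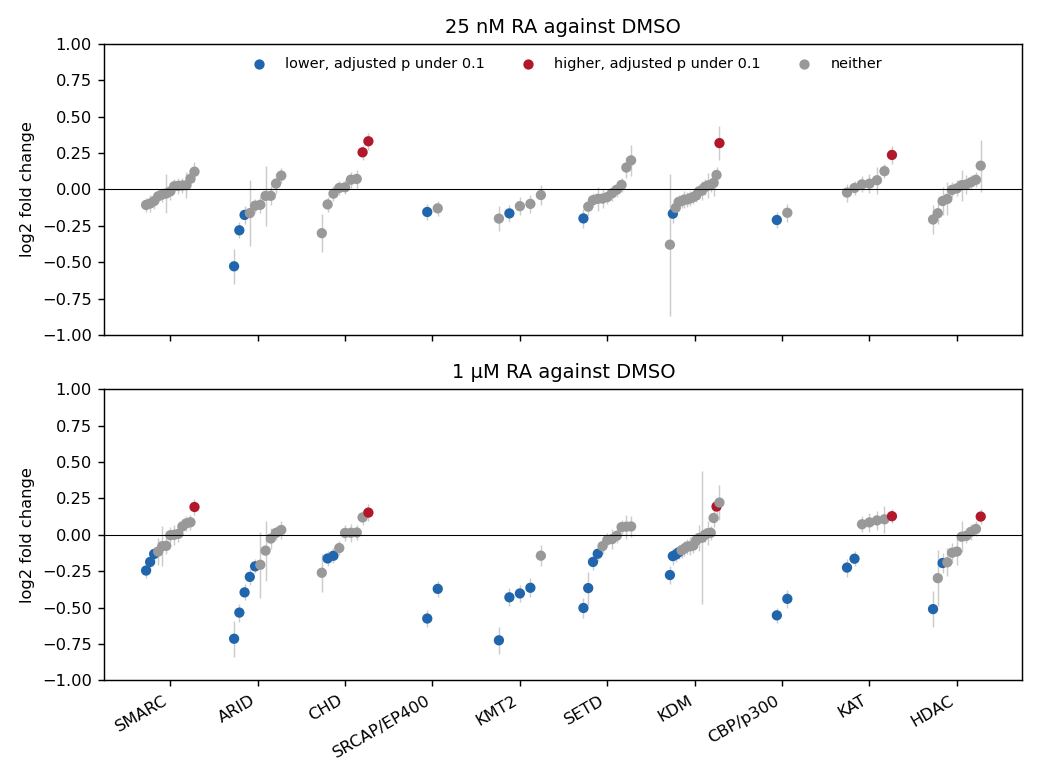
Fitted log2 fold change of each of the 88 members at 25 nM RA (top) and 1 µM RA (bottom) against the same 2 DMSO samples, by family and sorted by value in each panel; bars are 1 SE, and colour shows the call at adjusted p under 0.1. At 1 µM all of the CBP/p300 and SRCAP/EP400 genes and 4 of 5 KMT2 genes are lower, as are 4 of 18 KDM, 2 of 11 HDAC and 3 of 13 SMARC genes.

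The second comparison, of 25 nM RA with DMSO, tested a dose near that of embryonic tissue. Here 8 members were lower and 4 higher, or 9.09% and 4.55% against 3.55% and 4.50% of all genes. The median log2 fold change was -0.032 (all genes -0.001). With the offsets for length and GC content the split became 3 lower and 6 higher, against 3.53% and 5.09% of all genes. Both 25 nM samples lay below both DMSO samples for 37 members and above them for 17, against 22.3% and 22.5% of all genes. The 8 lower members were *Arid3b* (-0.28, edgeR adjusted p = 1.38e-05), *Arid5b* (-0.53), *Crebbp* (-0.21, edgeR adjusted p = 0.00167), *Setd1a* (-0.20), *Arid1a* (-0.18), *Kmt2b* (-0.16), *Kdm7a* (-0.17) and *Srcap* (-0.15). All 8 were among the 30 lower at 1 µM, but both comparisons share the DMSO samples.

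Several of these calls at 25 nM depended on 1 dish, and the number lower was 4 without DMSO replicate 2 and 5 without either 25 nM replicate. *Srcap* lost its call without DMSO replicate 2 (-0.09), 25 nM replicate 1 (-0.15) or 25 nM replicate 2 (-0.15), and *Arid1a* without DMSO replicate 2 (-0.12) or 25 nM replicate 1 (-0.10). *Setd1a* lost it without DMSO replicate 1 (-0.14) or 25 nM replicate 2 (-0.13), and *Kmt2b* without DMSO replicate 1 (-0.16), DMSO replicate 2 (-0.17) or 25 nM replicate 2 (-0.10). *Arid3b* and *Crebbp* kept their calls in all 19 alternative settings.

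The 4 members higher at 25 nM were *Chd7*, *Chd9*, *Kat6b* and *Kdm6b*. That is 4.55% of the members against 4.50% of all genes, which is near the background, so they are described as single genes. *Chd7*, the remodeler mutated in CHARGE syndrome, rose from 9.25 and 9.60 RPKM in DMSO to 11.0 and 11.5 RPKM at 25 nM, with 10.4 and 10.1 RPKM at 1 µM. It and *Chd9* had their highest samples at 25 nM (log2 fold changes of 0.26 and 0.33, edgeR adjusted p = 4.37e-05 and 1.53e-06). *Kat6b*, a MYST acetyltransferase, went from 2.78 ± 0.0531 RPKM to 3.28 ± 0.0311 RPKM (SD, n = 2) at 25 nM and 2.99 ± 0.0752 RPKM at 1 µM (log2 fold change at 25 nM 0.24, edgeR adjusted p = 0.00455; 0.22 and no longer called without 25 nM replicate 2). *Kdm6b*, which removes H3K27 methylation, read 0.871 and 1.07 RPKM in DMSO, 1.19 and 1.23 RPKM at 25 nM and 1.25 and 1.02 RPKM at 1 µM (log2 fold change at 25 nM 0.32, edgeR adjusted p = 0.0862). Its DMSO and 1 µM samples overlapped, and the call at 25 nM was lost without DMSO replicate 1 (0.16), 25 nM replicate 1 (0.34) or 25 nM replicate 2 (0.29).

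The doses were then compared directly, which tests whether the response at 1 µM differed from that at 25 nM. A total of 16 members were lower at 1 µM than at 25 nM and 0 were higher, against 2.62% and 0.792% of all genes, with a median log2 difference of -0.061 (all genes 0.0003). With the length and GC offsets 7 were lower and 1 was higher, against 1.22% and 0.898% of all genes. At an unadjusted p under 0.05 the likelihood ratio test gave 28 members in either direction, and 1934 of all 15143 genes. In the fit of single transcripts 11 of the members' 142 transcripts were lower and 1 was higher, a transcript of *Smarcad1* (0.25) whose other transcript was at -0.14. *Srcap* (-0.42, edgeR adjusted p = 5.28e-09), *Crebbp* (-0.34, edgeR adjusted p = 2.05e-07), *Arid1a* (-0.36, edgeR adjusted p = 4.56e-06), *Kmt2d* (-0.53, edgeR adjusted p = 5.25e-06) and *Kmt2a* (-0.33, edgeR adjusted p = 4.93e-05) had the smallest p. *Setd1b* had the most negative difference, -0.57 (edgeR adjusted p = 0.000127). *Ep300* (-0.28), *Ep400* (-0.24), *Setd1a* (-0.30), *Kmt2b* (-0.24) and *Kmt2c* (-0.25) were lower as well. Leaving out 25 nM replicate 2 ended the call of *Ep300* (-0.22) and *Ep400* (-0.21), and leaving out 25 nM replicate 1 that of *Setd1a* (-0.24) and *Kmt2b* (-0.18). The number lower was 10 without 25 nM replicate 1 and 8 without 25 nM replicate 2.

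By family, 4 of the 5 KMT2 genes were lower at 1 µM than at 25 nM, as were both of CBP/p300 and both of SRCAP/EP400. *Arid3b* (-0.12) and *Arid5b* (-0.19) were not called, so their levels at the 2 doses were not shown to differ. *Chd9* was the only 1 of the 16 not also lower than DMSO (-0.18, edgeR adjusted p = 0.086), and 13 of 19 alternative settings lost that call.

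The members have long transcripts, with a median of 5339 bases against 2816 over all genes, and the change at 1 µM RA grew with length over all genes, so the members were set beside genes of similar length. Length here is that of the transcript with the highest mean count. Under 2 kb, 0 of 9 members were lower or higher, against 4.55% and 10.7% of all genes of that length, and the median log2 fold change was -0.013 (all genes 0.040). The 19 members of 2 to 4 kb had a median of -0.030 (all genes 0.003) and the 23 members of 4 to 6 kb a median of -0.023 (all genes -0.029). In the first class 5 members were lower, or 26.3% against 9.59% of all genes, and 1 was higher. In the second, 4 were lower, or 17.4% against 16.6%, and 3 were higher, or 13.0% against 7.56%. For the 15 members of 6 to 8 kb the median was -0.091 (all genes -0.049), and 5 were lower, or 33.3% against 22.1%.

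Of the 22 members of 8 kb and over, 16 were lower and 1, *Chd9*, was higher, with a median of -0.27, whereas 36.0% of all 614 genes of that length were lower, with a median of -0.11. The class holds *Kmt2a*, *Kmt2b*, *Kmt2c*, *Kmt2d*, *Setd1b*, *Srcap*, *Ep400*, *Ep300* and *Arid1a*, all lower, and also *Kdm5a* (0.00), *Chd2* (0.01), *Setd2* (-0.08) and *Chd7* (0.12), which were not called. At 25 nM the class had 4 members lower and 2 higher, with a median of -0.10 (all genes -0.05, 11.2% lower and 4.40% higher). With the length and GC offsets described below, 0 were lower and 2 higher at 25 nM, with a median of -0.042. Between the doses 12 were lower without offsets, with a median of -0.18 (all genes -0.06, 13.8% lower). With both offsets 6 were lower between the doses, with a median of -0.10 (all genes 0.003, 4.23% lower). Over the 88 members, Spearman's rho between the log2 fold change at 1 µM and length was -0.36, and over all 15143 genes -0.19; genes of 1 sample share their library and are not replicates.

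**Figure D4:**
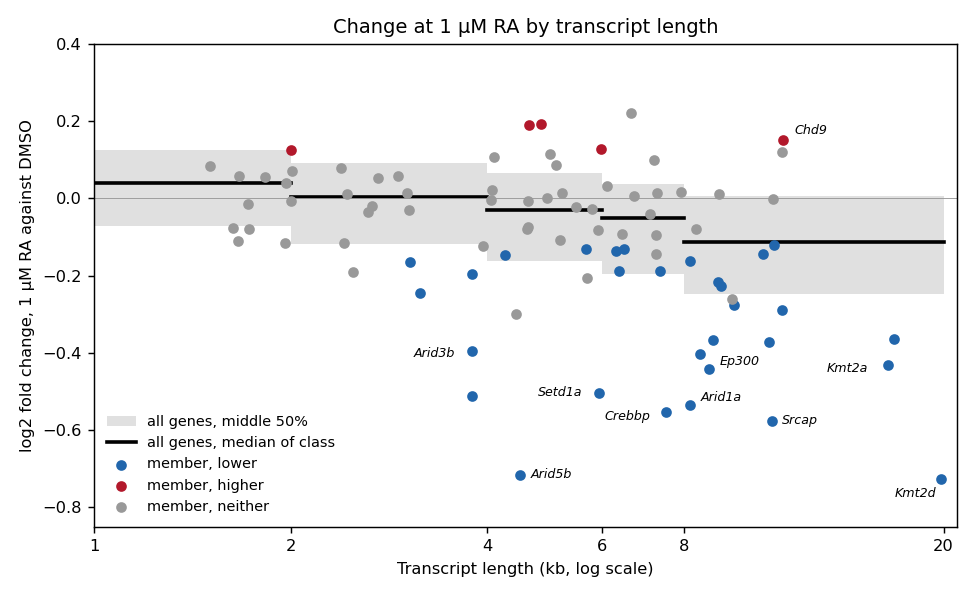
Fitted log2 fold change at 1 µM RA against DMSO of the 88 members by transcript length (log scale), over the median (line) and middle 50% (grey) of all genes in 5 length classes, of which the first also holds genes under 1 kb and the last genes over 20 kb. At 8 kb and over 16 of 22 members are lower, with a median of -0.27 where that of all genes is -0.11; the band shows single genes, not the spread of a median.

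GC content moved with the change as well. Among genes of 8 kb and over with a transcript GC content of 50% or more, 10 of 12 members were lower, with a median of -0.39, and 50.9% of all 218 such genes were lower, with a median of -0.19. Below 50% GC, 6 of 10 members were lower, with a median of -0.15, against 27.6% and -0.07 over 391 genes. Samples of the same condition also differed by GC content: Spearman's rho of the log ratio of the 2 dishes with GC content was -0.15 in DMSO, 0.31 at 25 nM and -0.24 at 1 µM, and with length 0.07, -0.10 and 0.08. Dishes with the same treatment thus differed along GC content, and the part of this in the differences between conditions was not tested.

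Both trends were therefore fitted in each sample and entered as offsets in an added analysis. With length and GC content removed in this way, 18 members were lower and 9 higher at 1 µM RA (8.02% and 8.41% of all genes), with a median of -0.032. Of the 35 members called without offsets 22 were still called, 13 were not, and 5 were called only with offsets. In the class of 8 kb and over, 11 of 22 were still lower and 2 higher, with a median of -0.14. All genes of that length had a median of -0.0005 and 16.6% lower. That median was set near 0 by the fit of the offsets itself. The log2 fold changes became -0.44 for *Crebbp*, -0.39 for *Srcap*, -0.41 for *Kmt2d*, -0.35 for *Arid1a*, -0.35 for *Setd1a*, -0.31 for *Ep300*, -0.23 for *Kmt2a*, -0.21 for *Ep400* and -0.18 for *Kmt2b*, each still called. *Arid5b* stood at -0.71 in both fits, and *Arid3b* went to -0.33. *Setd1b* (-0.14), *Smarca4*, *Smarcc1*, *Arid1b* and *Hdac2* were no longer called, nor was *Kdm5c*, whose value changed sign from -0.12 to 0.05, and *Chd7* (0.28), *Kat6b* (0.17), *Kdm6b* (0.42), *Arid3a* (0.12) and *Chd3* (0.18) were called higher here but not without offsets. Of these 5, *Chd7* and *Kdm6b* were also called with either offset alone, and *Kat6b* with the length offset alone.

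**Figure D5:**
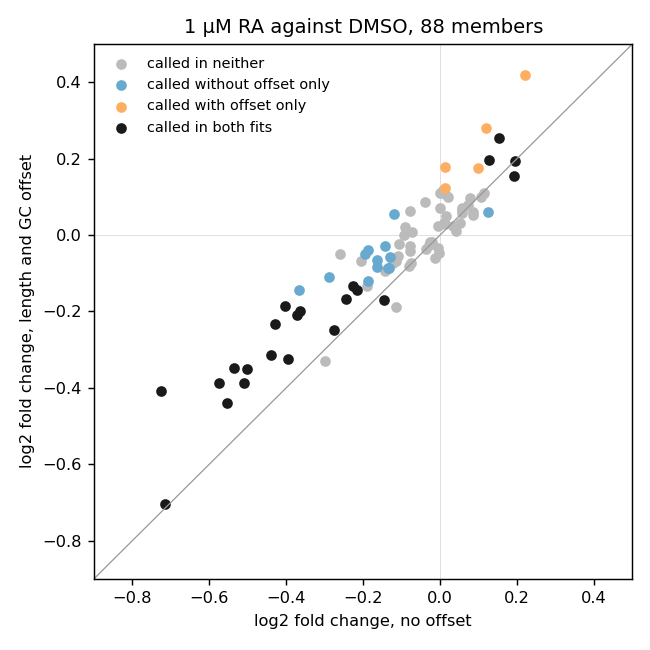
Log2 fold change at 1 µM RA against DMSO of the 88 members without offsets (x axis) and with offsets for transcript length and GC content (y axis); the line marks equal values and colour the fits in which a member was called. Most lower members move toward 0, and 22 of the 35 called without offsets are called in both fits.

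With all genes split by mean count into 4 classes of equal size, 16 of the 45 members in the highest class were lower, against 8.64% of all genes there, and 11 of the 24 in the next class, against 14.1%. In the class after that 3 of 15 members were lower, against 15.5%, and in the lowest 0 of 4, against 6.44%. Spearman's rho between the log2 fold change at 1 µM and the span of the gene on the genome was -0.20 over the members and -0.07 over all genes.

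Other chromatin genes, which the symbol rule does not catch, were counted in the same fit. They include subunits of the members' complexes, but also genes outside them, such as Polycomb genes and genes of DNA methylation. Of 183 such genes tested, 38 were lower and 8 higher at 1 µM RA, with a median of -0.012. That was 20.8% lower and 4.37% higher, against 11.2% and 8.54% of all genes. At 25 nM 6 were lower and 8 higher, or 3.28% and 4.37% against 3.55% and 4.50%, which is near the background. *Trrap*, the scaffold shared by acetyltransferase complexes that include EP400, went from 8.71 and 8.61 RPKM in DMSO to 8.18 and 8.38 RPKM at 25 nM and 6.78 and 6.80 RPKM at 1 µM (log2 fold change at 1 µM -0.36, edgeR adjusted p = 1.71e-11). *Hcfc1*, a subunit of the SETD1 and KMT2 complexes, and *Dot1l*, the H3K79 methyltransferase, were lower by -0.34 and -0.45. By group, 2 of 13 other subunits of the H3K4 methyltransferase complexes, 4 of 15 of SWI/SNF, 5 of 19 of NuRD and SIN3, 5 of 30 Polycomb genes and 6 of 30 of the ISWI, INO80, SWR1 and TIP60 complexes were lower. Of the rest, 7 of 37 genes of acetylation, 5 of 22 other methyltransferases, 2 of 7 other demethylases and 2 of 10 genes of DNA methylation were lower.

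The smallest adjusted p among those that rose was that of *Tet2*, which oxidizes 5-methylcytosine in DNA, with 0.795 and 0.672 RPKM in DMSO, 2.25 and 2.24 RPKM at 25 nM and 2.59 and 2.65 RPKM at 1 µM. Its samples rose in the order of dose (log2 fold change at 1 µM 1.82, SE 0.0809, edgeR adjusted p = 8.65e-118), and its 9181-base transcript puts it in the longest class. *Jmjd1c*, a paralog of *Kdm3a* (log2 fold changes of 0.29 at 1 µM and 0.32 at 25 nM), and *Baz1b*, a partner of *Smarca5* (0.24 and 0.21), were higher at both doses. The 2 comparisons share their DMSO samples.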

How the data were processed

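Total RNA was depleted of ribosomal RNA and sequenced as 6 stranded libraries. Per the labels (the submitters' processing notes) and the study's methods, the authors aligned reads to mm10 with TopHat2 2.0.13 and Bowtie2 2.2.5.0 and estimated transcript abundance by expectation-maximization; Partek 6.6 is also named. The deposited expected counts per transcript need not be whole, and the authors scaled the deposited RPKM values by transcript length and reads mapped. The annotation and strand setting are not given in the sources used here.

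Counts of 30352 transcripts were summed to 20631 genes and rounded, and RPKM values were summed. edgeR 4.0.16 (R 4.3.3) fitted all 6 samples at once (TMM normalization, filterByExpr, likelihood ratio test as in the study), adjusting over 15143 genes, with calls at adjusted p under 0.1. The total count ranged from 31753556 to 42029348 per sample, and the biological coefficient of variation was 0.0351. Length and GC content were removed by loess (span 0.5) offsets per sample, GC content being matched for 98.4% of genes tested and 87 of 88 members. Coordinates are 1-based mm10. Of the members, 33 had several transcripts and 14 overlapped another gene's locus.

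The members, lists and tests were chosen with earlier results of these data known. Named genes were, by adjusted p, the first 10 members each way at 1 µM and the first 5 in the other comparisons, *Srcap*, *Crebbp*, *Ep300* and *Ep400*, the highest and lowest of each family in DMSO, and 3 other chromatin genes in each direction. Alternatives were the quasi-likelihood test, DESeq2 1.42.0, other scalings and filters, single transcripts, a replicate block, offsets, and leaving out each sample.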

Additional observations from a re-analysis of the deposited data

How the results depend on the processing

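Of 39 values of named members that were called, 20 kept their direction and call in all 19 alternative settings, and 0 changed direction in any; the 1 µM decreases of *Crebbp*, *Srcap*, *Arid1a*, *Kmt2d*, *Setd1a*, *Arid3b*, *Arid5b*, *Ep300*, *Ep400*, *Kmt2a* and *Kmt2b* were among the 20. At 1 µM RA the number of members higher was 2 with total counts, 3 with no filter on low counts, 2 at adjusted p under 0.05, 10 with the length offset and 9 with length and GC offsets, which left 18 lower; the cause was not tested. The median log2 fold change at 1 µM was -0.099 with total counts, -0.037 with the length offset, -0.061 with the GC offset and -0.032 with both. For transcripts of 8 kb and over it was -0.29 with total counts, -0.17 with the length offset and -0.14 with both. At 25 nM RA the number lower was 5 with the quasi-likelihood test, 2 with DESeq2 (which gave 2 higher) and 5 with no filter. It was 4 at adjusted p under 0.05, 3 with the length offset and 3 with both offsets. The last 2 settings had medians of -0.012 and -0.0081. Of the members' 142 transcripts, fitted singly as deposited, 4 were lower and 5 were higher at 25 nM. Between the doses 10 were lower with DESeq2 and 7 with both offsets, 1 member was higher with both offsets and 1 single transcript in the fit of transcripts, and the median was -0.042 with the length offset and -0.032 with both. Other chromatin genes lower at 1 µM numbered 23 with both offsets. The offsets for GC content were added after the data were seen.

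Leaving out each sample in turn gave 20 to 30 members lower and 1 to 6 higher at 1 µM (1 higher without DMSO replicate 1 or 1 µM replicate 1, 3 without DMSO replicate 2), with medians of -0.081 to -0.067 (-0.28 to -0.23 at 8 kb and over). At 25 nM it gave 4 to 10 lower and 2 to 5 higher (4 lower without DMSO replicate 2, 5 without either 25 nM replicate, 2 higher without 25 nM replicate 2), and between the doses 8 to 15 lower and 0 to 1 higher, with medians of -0.081 to -0.054. An arm left with 1 sample was assumed to vary like the others. Samples were treated as unpaired. Deviations of equal-numbered dishes correlated over genes at -0.041, 0.048 and -0.062. That shows no strong shared deviation but cannot tell whether those dishes were handled together. With a replicate block 29 members were lower and 5 higher at 1 µM, 7 and 4 at 25 nM, and 15 and 0 between the doses. With 2 dishes per condition, members with few counts such as *Kdm4d*, *Arid5a* and *Hdac9* have wide errors, and a lack of a call there does not show that they did not change.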
